A study of Capra hircus with 3 samples.

Results

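Annotated long noncoding RNAs (lncRNAs) that lie close to a protein-coding gene were followed through lactation in the mammary gland of the dairy goat, each beside its nearest coding neighbour. A locus was included when its entry ended in 1 goat NCBI gene ID typed as lncRNA, when a protein-coding locus lay within 50 kb on the same scaffold, and when neither locus shared identical coordinates with another entry. Of the 50041 loci with deposited values, 567 were lncRNA loci of 441 genes, 241 of these had coordinates of their own, and 187 met the distance limit. The 187 lncRNA loci belonged to 187 genes on 116 scaffolds and had 183 distinct coding neighbours, since ST6GALNAC2, SPHK1, NR2F2 and IRX5 were each the nearest coding locus of a pair of lncRNAs.

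Mammary gland tissue was taken by surgery from Laoshan dairy goats, 4 years old and in the third lactation, at 10 days (early lactation), 90 days (peak lactation) and 210 days (late lactation) after parturition. No treatment separated the groups, and the total RNA of 5 goats was mixed in equal amounts into 1 library per stage with a stranded kit. With 1 library per stage there is no replicate and no estimate of the spread between goats, so every difference below is between single pooled libraries and carries no error and no p-value. Values are FPKM, fragments scaled by the length of the transcript and by how many fragments were mapped, and the number of fragments behind each locus is unknown. Of the values with 7 digits, 91.8% in the early, 98.6% in the peak and 94.8% in the late library ended in 5, as the mean of 2 values of 6 digits would, and whether a deposited FPKM is such a mean is not given in the sources used here.

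LncRNAs are transcripts of considerable length without a recognised protein. Some act on the genes beside them, by recruiting chromatin or transcription factors to a promoter or simply by being transcribed, and others share a promoter region with a neighbour and are read from the opposite strand. In the mammary gland, coding neighbours include genes of milk protein secretion, lipid synthesis, immune surveillance and epithelial growth. A correlation between an lncRNA and its neighbour does not tell these arrangements apart.

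Sequence was at hand for few of the pairs. Among the antisense pairs listed by the study, 9 were pairs described here. The sequences of these pairs were at hand only in part, cut short at a like length with the coding bases first. Only for LOC106502249 did the part at hand hold 30 or more bases of the lncRNA. This lncRNA lay 120 nt from RUFY1, whose protein acts in the sorting of endosomes. Both stretches are shown because no other pair had as many lncRNA bases at hand, with 30 of the 320 given bases printed for RUFY1. The capitals mark the longest run of the lncRNA stretch that is exactly the reverse complement of a run in the RUFY1 stretch, which is 8 bases, and a run this short also occurs between unrelated sequences. Because the lncRNA stretch is cut short, this run says nothing about the pairing that the study listed. Where in the loci the stretches lie was not determined here.
LOC106502249: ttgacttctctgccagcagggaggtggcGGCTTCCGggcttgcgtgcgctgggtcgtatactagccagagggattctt
RUFY1: gcgggcggcgaCGGAAGCCtggtccgcccc

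LOC106502249, on scaffold NW_005100709.1 from 1261527 to 1263327, was at 1.02 FPKM in the library with the label early lactation, at 0.934 FPKM in the one with the label peak lactation and at 6.49 FPKM in the one with the label late lactation. RUFY1 was at 7.22, 10.2 and 8.52 FPKM in the same order. The lncRNA stood high in the late library alone, with a log2 ratio of late over early of 2.56, while that of RUFY1 was 0.24. Here and below, ratios are of FPKM + 0.1, which understates the change of low loci, and 3 values in a row are given in the order early, peak and late.

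The labels were read as they stand, and the tissue was checked against marker genes. All 8 genes of the secretory epithelium had a value, with summed levels of 126080, 33441 and 73820 FPKM. Of the 8, 6 were lower in the library labelled peak than in that labelled early. KRT8 and KRT18 were higher in it, at 196 and 32.0 FPKM against 126 and 21.0 FPKM. In the late library 3 of the 8 were lower than in the early one, among them LALBA, which adds nothing to the late sum. LALBA, the whey protein gene whose product makes lactose synthase, was listed at 0 in the late library, against 70053 FPKM in the early library. A value of 0 is therefore given only as listed. Loci listed at 0 do enter the ratios and counts below through FPKM + 0.1, where they set no reliable size, so the main counts are also given without them. Of the 5 leukocyte markers, 4 had a value, and their sum was 287, 472 and 348 FPKM, with CD3E listed at 0 in the early and peak libraries. JCHAIN made up most of this sum, at 266, 429 and 337 FPKM, while PTPRC was at 17.6, 39.9 and 8.08 FPKM. The 5 myoepithelial markers summed to 185, 193 and 169 FPKM, the 3 endothelial markers to 89.0, 81.6 and 90.9 FPKM, and the 2 of 3 adipocyte markers with a value to 16.4, 4.93 and 6.16 FPKM, while none of the 4 muscle markers had a value. In whole tissue, fewer cells of a type and less RNA per cell cannot be told apart.

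The lncRNA loci lay between 2 and 49925 nt from their coding neighbour, with a median gap of 5838 nt and quartiles of 1068.5 and 16233 nt. A gap of at most 1000 nt was found in 44 pairs, at most 200 nt in 21 pairs and over 10 kb in 74 pairs. The neighbour lay at lower coordinates in 93 pairs and at higher coordinates in 94. None of the 187 overlapped a coding locus, and 134 lncRNA loci that had exactly the coordinates of a coding locus were left out. The lncRNA loci spanned a median of 6657 nt, introns included, against 22709 nt for their neighbours. In the gene order of the newer goat assembly ARS1.2, the neighbour was the nearest coding gene for 134 of the 187 lncRNAs and among the next 4 for 46. The 46 include the pairs of LIFR, KLHL6, WDR26, BBS7, CIITA, DDOST, TMX2, EGFL7 and MTA3 named below. They also include those of LOC102188704, LOC102180344 and LOC102184231. SLC7A4, also named below, was farther from its lncRNA than the next 4. Of the lncRNAs, 179 carried only a LOC number, and 8 bore the symbol of a protein-coding gene although typed as lncRNA (LRRC28, C15H11orf31, DEXI, TRNP1, GNB2, INAFM2, RPL37A and SOX7).

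At the limit, LOC102178073 was the farthest lncRNA included, 49925 nt from ENTPD4, a nucleotide-hydrolysing enzyme of the Golgi and lysosome. Its levels were 0.371, 0.988 and 0.411 FPKM, against 17.5, 16.9 and 20.6 FPKM for ENTPD4. Just outside was LOC102178464, 52829 nt from THY1, at 1.499, 2.44e-05 and 1.434 FPKM.

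The lncRNAs were present at low levels beside more abundant neighbours. Their median was 1.61, 1.49 and 1.58 FPKM, and that of the neighbours was 10.4, 9.90 and 8.75 FPKM. The 54 lncRNA loci farther from a coding locus, or alone on their scaffold, had medians of 1.42, 1.32 and 1.54 FPKM, close to those of the lncRNAs near coding loci. In all 3 libraries, 137 lncRNAs were below and 29 above their neighbour. The level of a neighbour told little about that of its lncRNA, with Spearman correlations across the 187 pairs of 0.0029, -0.043 and 0.076.

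Individual lncRNAs ranged widely. At least 1 FPKM was reached by 133, 130 and 121 of the 187, and 91 reached it in all 3 libraries. Listed at 0 were 9, 5 and 17 lncRNAs, and 24 were so listed in at least 1 library, 13 of them in the late library alone. The highest level stood in the peak library for 70 lncRNAs (37.4%, against 43.9% of all coding loci), in the early library for 59 and in the late library for 58. The values of all libraries are shown in the plot of levels.

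**Figure D1:**
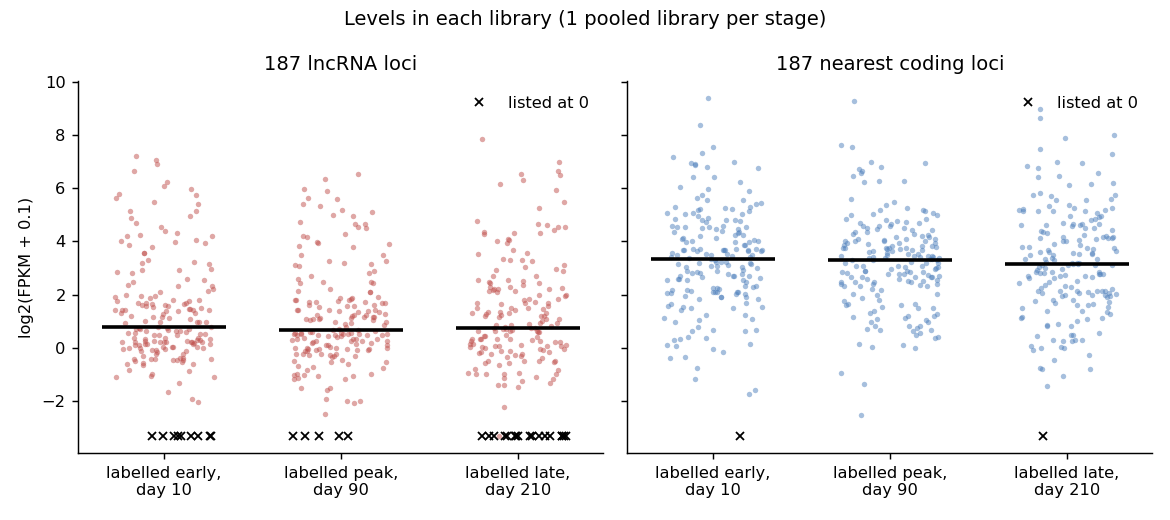
Level of each lncRNA locus (left) and of its nearest coding locus (right) as log2(FPKM + 0.1) in each library by its label, 1 point per locus and pair, with a line at the median and crosses for loci listed at 0. The lncRNA medians (1.61, 1.49 and 1.58 FPKM) sit below those of the neighbours in every library, and the late library holds 17 lncRNAs listed at 0.

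The 6 most abundant lncRNAs were led by LOC102190274, on scaffold NW_005100911.1 from 30484498 to 30486388, at 119, 92.3 and 99.3 FPKM. Its neighbour CCDC51, a coiled-coil protein of mitochondria, lay 7231 nt away at 4.86, 5.45 and 6.64 FPKM. LOC106502728 had a similar mean and a much wider range, with 75.8, 5.34 and 228 FPKM. It lay on scaffold NW_005100620.1 from 34252394 to 34256876, 20637 nt from LYPD6, a membrane-anchored protein of Wnt signalling that was at 0.344, 0.916 and 0.476 FPKM.
The next were LOC106502800, at 132, 48.8 and 128 FPKM beside BPIFB1, and LOC102180089, at 146, 62.7 and 91.0 FPKM beside PHACTR4, a regulator of actin through protein phosphatase. Both were lowest in the peak library. C15H11orf31, at 99.0, 59.6 and 92.4 FPKM, lay 1652 nt from TMX2, a thioredoxin-like protein of the endoplasmic reticulum. GNB2, at 62.1, 81.9 and 79.9 FPKM, lay 4793 nt from GIGYF1 and was the only one of the 6 that was lowest in the early library. The symbol GNB2 is that of a G protein subunit, and whether its reads were counted apart from a coding transcript is not given in the sources used here.

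Between the early and peak libraries, 73 of the 187 lncRNAs (39%) were at least 2-fold apart, 30 higher and 43 lower in the library labelled peak. Over all 11660 lncRNA and coding loci with coordinates of their own the share was 17.2%, with 10.4% higher and 6.76% lower. Of the 183 neighbours, 29 (15.8%) were at least 2-fold apart, a total near that background but with 11 higher (6.01%) and 18 lower (9.84%), and the 54 lncRNAs farther from coding loci were close to the lncRNAs described here, with 22 (40.7%). The median log2 ratio was -0.06 for the lncRNAs and -0.03 for the neighbours. Without pairs holding a locus listed at 0, 65 of 175 lncRNAs were at least 2-fold apart.

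Between the early and late libraries, 46 lncRNAs (24.6%) were at least 2-fold apart, 16 higher and 30 lower in the library labelled late. The background was 7.92%, with 1.83% higher and 6.1% lower. Among the neighbours 13 (7.1%) and among the farther lncRNAs 12 (22.2%) were that far apart. Without pairs holding a locus listed at 0, 26 of 163 lncRNAs were counted. Both comparisons use the same early library and are not independent of each other.

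The shares were also set beside those of coding loci in the same class of mean FPKM, and levels within a class were not matched. Below a mean of 1 FPKM, 48.2% of 56 lncRNAs and 42.8% of 955 coding loci were at least 2-fold apart in peak over early, and 37.5% and 37.6% in late over early. At these levels the lncRNAs were near the coding loci. From 1 to 5 FPKM the shares were 31% of 87 lncRNAs and 22% of 3402 coding loci in peak over early, and 18.4% and 9.99% in late over early. At a mean of 5 FPKM or more, 43.2% of 44 lncRNAs against 10.6% of 7062 coding loci were that far apart in peak over early, and 20.5% against 2.36% in late over early. Of those 44 lncRNAs, 14 were lower and 5 higher in the peak library. The lncRNA and coding shares thus differed in both classes of 1 FPKM or more, and most in the upper one, with no spread between replicates known for either kind of locus. The contrast was smaller among loci at 1 FPKM or more in both libraries compared. There the shares were 26.7% of 105 lncRNAs and 12.1% of 10049 coding loci in peak over early. In late over early they were 9.35% of 107 and 2.7% of 9826.

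**Figure D2:**
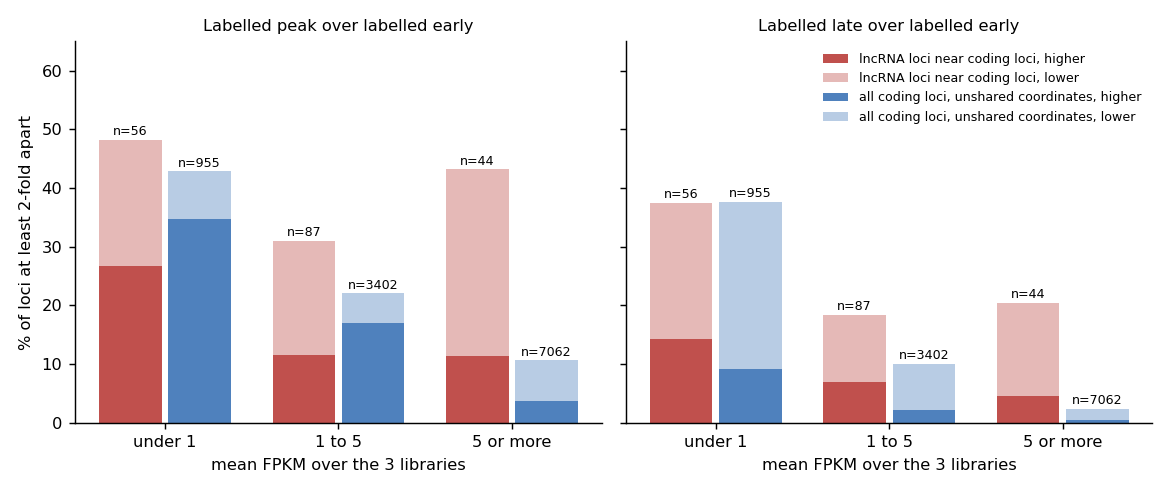
Percentage of loci at least 2-fold apart in FPKM + 0.1 from the early library, in the library labelled peak (left) and late (right), by mean FPKM over the 3 libraries, for the 187 lncRNA loci (red) and all coding loci with coordinates of their own (blue), with the higher part in full colour, the lower part in pale colour and n the number of loci. In the group of 5 FPKM or more the lncRNA bars reach 43.2% and 20.5%, against 10.6% and 2.36% for coding loci.

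Among lncRNAs above 0 in both the early and the peak library, the 5 lowest ratios of peak over early, a list drawn up after the values were seen, began with LOC106502489. This lncRNA, on scaffold NW_005100755.1 from 9728359 to 9736542, was at 16.0, 0.0795 and 20.1 FPKM. It lay 4959 nt from AGPAT4, an enzyme that makes phosphatidic acid for phospholipids and triglycerides, which was at 39.2, 19.0 and 47.0 FPKM. Both loci dipped in the peak library, with log2 ratios to early of -6.49 for the lncRNA and -1.04 for AGPAT4.
LOC102186708 was at 11.7, 0.379 and 2.59 FPKM, 20427 nt from WDR26, a subunit of a ubiquitin ligase, at 39.5, 18.1 and 35.95 FPKM. LOC106502429 was at 34.8, 3.65 and 19.8 FPKM, 4981 nt from the uncharacterised coding locus LOC102177798 at 22.1, 0.896 and 18.3 FPKM. LOC106502728, given above beside LYPD6, had a log2 ratio of peak over early of -3.80. LOC102181949 was at 4.94, 0.462 and 5.04 FPKM, 2190 nt from FER, a tyrosine kinase, at 12.8, 14.7 and 13.3 FPKM. The neighbour was thus also lower in the peak library in 3 of these 5 pairs and higher in those of LYPD6 and FER.

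Among pairs with both loci at 1 FPKM or more in both libraries, the 4 lowest ratios of peak over early belonged to LOC106503935, LOC102188704, LOC106503316 and LOC106502102. LOC106502102, on scaffold NW_005100603.1 from 14643795 to 14648810, lay 79 nt from BCL6, a transcriptional repressor of germinal centre B cells. The lncRNA was at 3.798, 1.34 and 4.64 FPKM and BCL6 at 4.69, 9.04 and 3.72 FPKM. The lncRNA was lowest, and BCL6 highest, in the peak library. LOC106503316 was at 25.4, 8.46 and 61.1 FPKM, 17979 nt from LIFR, the receptor of leukaemia inhibitory factor, at 15.7, 13.8 and 24.6 FPKM. Both loci of this pair were lowest in the peak and highest in the late library, with log2 ratios of late over early of 1.26 and 0.65. LOC102188704 was at 3.78 and 1.10 FPKM in the early and peak libraries and listed at 0 in the late library, beside LOC102188438 at 4.69, 6.26 and 4.61 FPKM.

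Highest in the peak library by the same limit were LOC102180344, LOC102178854, LOC106502607 and LOC102179411. LOC102180344 was at 2.02 and 30.6 FPKM in the early and peak libraries and listed at 0 in the late library, a log2 ratio of peak over early of 3.85. LOC102178854, a locus of 386 nt beside TEX2, a lipid transfer protein, was at 2.70 and 15.3 FPKM and also listed at 0 in the late library. LOC106502607 was at 2.34, 11.1 and 2.65 FPKM beside MTA3, a subunit of a nucleosome remodelling complex, at 4.21, 4.02 and 3.17 FPKM. LOC102179411 was at 6.92, 18.5 and 5.38 FPKM beside HEATR6 at 10.4, 10.2 and 11.1 FPKM. In none of these 4 pairs was the neighbour 2-fold apart between early and peak.

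The highest ratios of late over early by that limit were those of LOC106502249 beside RUFY1, LOC102185919, LOC106503316 and LOC102178623. LOC102185919 was at 2.16, 0.514 and 5.62 FPKM beside ERAP2, a peptidase that trims antigenic peptides, at 9.32, 14.3 and 6.33 FPKM. The order of the libraries was opposite in the 2 loci. LOC102178623 was at 3.34, 2.06 and 5.77 FPKM, 196 nt from KLHL9, an adaptor of a ubiquitin ligase, at 13.0, 16.1 and 14.7 FPKM, and its log2 ratio of 0.77 stayed below 2-fold. The lowest were those of LOC102186708, LOC102178647, LOC102168552 and LOC106502506. LOC102178647, at 54.5, 36.2 and 23.2 FPKM beside ZBTB37, and LOC102168552, at 49.5, 34.8 and 23.4 FPKM beside EGFL7, a protein secreted by endothelium, were each highest in the early and lowest in the late library. LOC106502506 was at 53.0, 23.4 and 25.1 FPKM beside EPB41L4A, which was at 4.595, 5.57 and 5.48 FPKM.

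To compare lncRNA and neighbour over all pairs, their log2 ratios were correlated across the 187 pairs. Between early and peak Pearson's r was 0.15 (Spearman's rho 0.15), and 98 pairs (52.4%) had ratios of one sign. Between early and late r was 0.27 (rho 0.36), and 116 pairs (62.0%) had ratios of one sign. With the neighbour exchanged for the coding locus of closest mean FPKM on another scaffold, r was 0.0014 (rho 0.087) and -0.04 (rho 0.089), and ratios of one sign were found in 106 and 105 pairs. For 8713 coding loci paired with their own nearest coding locus, r was 0.18 for peak over early and 0.10 for late over early. All pairs come from the same 3 libraries, a locus can enter more than 1 coding pair, and these values describe the libraries without a test.

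The value for the lncRNA pairs was thus close to that of coding neighbours in the first comparison and above it in the second. Without loci listed at 0, r was 0.27 (175 pairs) and 0.43 (163 pairs). Where both loci were at 1 FPKM or more in both libraries, r was 0.20 (98 pairs) and 0.27 (97 pairs). Over the same 98 pairs, r with the exchanged partner of like FPKM was 0.18 between early and peak, and 0.21 where that partner too was at 1 FPKM or more. The nearest locus did not stand apart from it there.

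**Figure D3:**
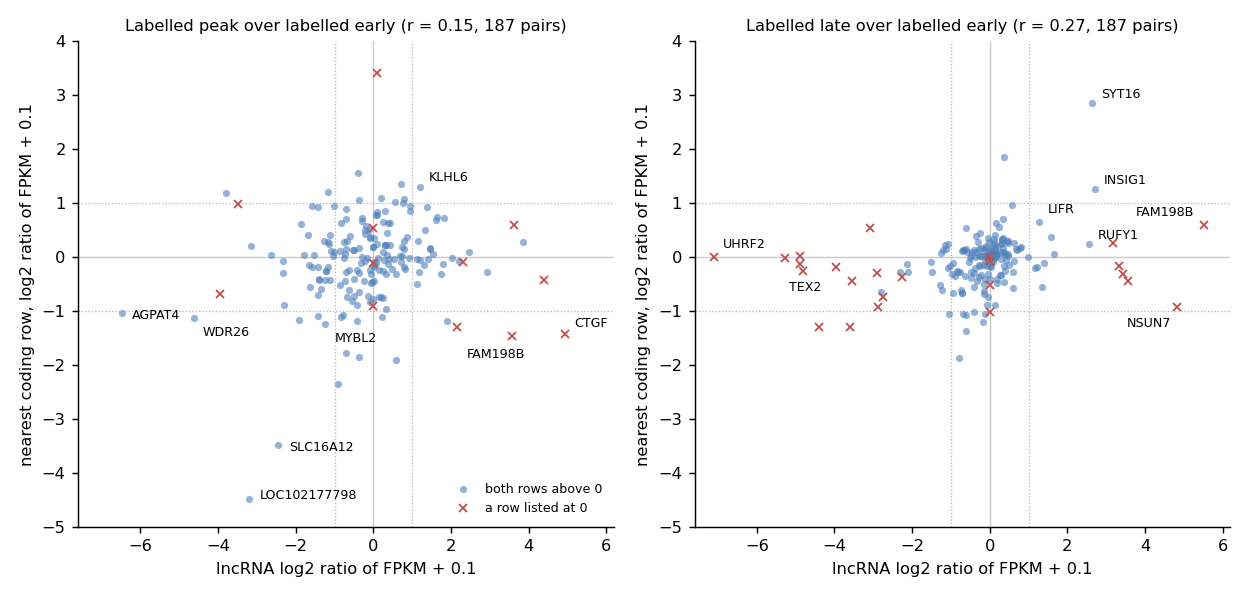
Log2 ratio of FPKM + 0.1 of each lncRNA (horizontal) and its nearest coding locus (vertical), for the library labelled peak (left) or late (right) over that labelled early, 1 point per pair, with crosses for pairs in which a locus is listed at 0 and dotted lines at 2-fold. The points lie loosely about the centre (r = 0.15 and 0.27), a few named by their coding locus lie on the diagonal, and most lncRNAs far from 0 have a neighbour near 0.

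Nearness did not order the correlation. For gaps up to 10 kb r was 0.14 in peak over early and 0.18 in late over early (113 pairs), and for wider gaps it was 0.14 and 0.43 (74 pairs). Among the 44 pairs at most 1 kb apart it was -0.23 and 0.17. Among the 27 pairs 25 to 50 kb apart it was -0.23 and 0.59, a group that holds LOC102180344 and LOC102184231, both listed at 0 in the late library. The 21 pairs at most 200 nt apart had 2 lncRNAs at least 2-fold higher and 6 lower in the peak library, a share like that of all 187 lncRNAs (39%, against 17.2% of all loci), with 2 neighbours 2-fold apart, and r was 0.02 in peak over early and 0.34 in late over early.

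**Figure D4:**
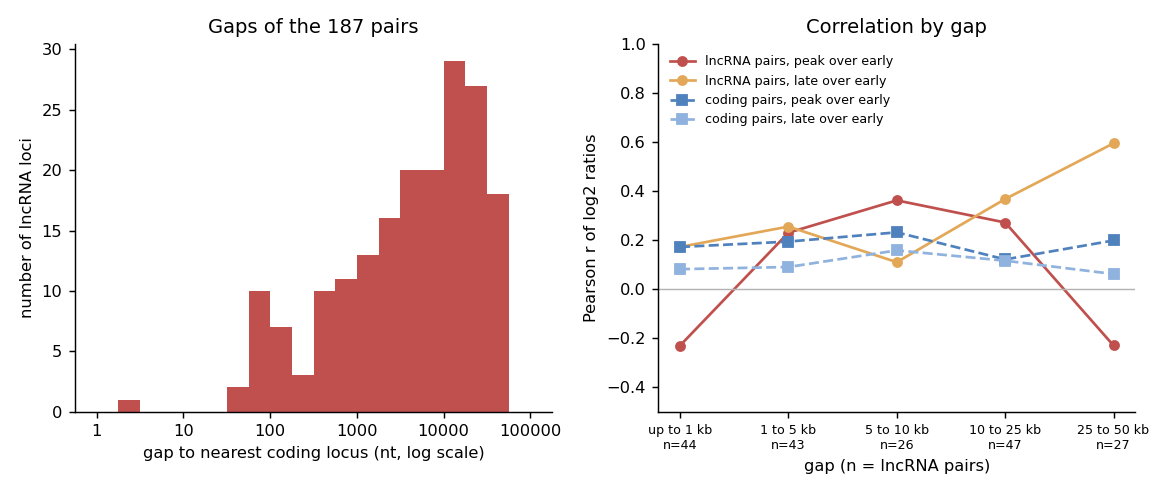
Left, number of lncRNA loci by gap to the nearest coding locus in nt on a log scale. Right, Pearson's r of the log2 ratios within 5 gap classes for lncRNA pairs (circles, solid lines) and for coding loci with their nearest coding locus (squares, dashed lines), with n the lncRNA pairs. The lncRNA values run from -0.23 to 0.59 without an order by gap, in classes of 26 to 47 pairs, while the coding values stay between 0.061 and 0.23.

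Few pairs had both loci at least 2-fold apart, 14 of 187 in peak over early and 5 of 187 in late over early. Among coding pairs the shares were 3.33% and 0.987%. Between early and peak, 8 pairs did so in one direction (4.28%, against 2.61% of coding pairs), 1 with both higher and 7 with both lower, and 6 in opposite directions (3.21%, against 0.723%). Between early and late, 5 pairs did so in one direction (2.67%, against 0.872%), 2 higher and 3 lower, and 0 in opposite directions (0.115% of coding pairs). With the coding locus of closest mean FPKM on another scaffold as partner, 4 pairs did so in one direction between early and peak. In opposite directions there were 5 (2.67%), near the 6 with the nearest locus. Between early and late that partner gave 0 pairs in one direction and 3 in opposite directions. Without pairs holding a locus listed at 0, the pairs in one direction numbered 8 and 3 and those in opposite directions 3 and 0. The single loci differed in this respect too, with 39% of the lncRNAs and 16.7% of all coding loci 2-fold apart between early and peak.

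The pair of LOC106502073 and INSIG1 is the one that touches milk fat synthesis most directly. INSIG1 is a protein of the endoplasmic reticulum that holds back the SREBP factors of lipid and cholesterol synthesis. LOC106502073, on scaffold NW_005100657.1 from 3836850 to 3841374, lay 8242 nt from INSIG1 and was at 0.653, 0.714 and 4.83 FPKM. INSIG1 was at 107, 105 and 256 FPKM. Both were level between early and peak and high in the late library, with log2 ratios of late over early of 2.71 and 1.26. INSIG1 was also the only neighbour among 76 genes listed for milk proteins, milk fat and lactose synthesis, lactation signalling and inflammation, of which 65 had a value and 61 coordinates of their own. Of all 11419 coding loci with coordinates of their own, 183 were a neighbour, a share near that of 1 in 61. The count thus shows nothing particular to the listed genes. The caseins CSN1S1 and CSN3, FASN, SCD and PRLR were among those 61 and were not the nearest coding locus of any lncRNA included here, whereas CSN1S2, CSN2, SREBF1, STAT5A and STAT5B had no value under their symbol and could not be one.

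The other pair that was higher in the late library was LOC102181690 with SYT16, a member of the synaptotagmin family, 13568 nt apart. LOC102181690, on scaffold NW_005100765.1 from 1848638 to 1868490, was at 0.643, 0.408 and 4.48 FPKM, and SYT16 at 0.203, 0.073 and 2.09 FPKM. The levels ran in parallel over all 3 libraries, with log2 ratios of late over early of 2.63 and 2.86. Of the 3 pairs counted as lower in the late library, those of LOC102180344 and LOC102184231 were listed at 0 there, so that their count rests on the 0.1 added, and stood beside uncharacterised coding loci. The third was LOC102187162 with LRRC75A, the closest pair of all with a gap of 2 nt. LOC102187162 was at 20.7, 15.9 and 9.85 FPKM and LRRC75A at 0.675, 1.52 and 0.272 FPKM, with log2 ratios of late over early of -1.06 for both. This pair was below the FPKM limit of the naming rule and was named after its values were seen.

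The 7 pairs lower in the peak library held, beside those of AGPAT4, WDR26 and LOC102177798, the pairs of MYBL2, SLC16A12, SLC7A4 and BPIFB1. LOC102191351 was at 7.57, 3.16 and 7.74 FPKM, 7204 nt from MYBL2, a transcription factor of dividing cells, at 4.95, 2.05 and 4.98 FPKM. Their log2 ratios of peak over early were both -1.23, and both returned to the early level in the late library. LOC106503633 was at 1.29, 0.154 and 0.946 FPKM, 11835 nt from SLC16A12, a monocarboxylate and creatine transporter, at 4.26, 0.289 and 2.05 FPKM, with log2 ratios of -2.45 and -3.49. LOC106503935 was at 16.4, 4.31 and 19.5 FPKM, 4101 nt from SLC7A4, of a family of amino acid transporters, at 85.5, 37.9 and 125 FPKM, with log2 ratios of -1.91 and -1.17.
BPIFB1, a secreted protein of mucosal surfaces, was at 3.66, 1.68 and 2.93 FPKM beside the more abundant LOC106502800. Each of these 7 pairs was lowest in the peak library in both loci, the library in which the secretory markers also had their lowest sum, and the part of cell composition in it was not tested. The pair higher in the peak library was LOC102188899, at 1.06, 2.55 and 1.41 FPKM, with KLHL6, a protein of B cell receptor signalling, at 2.70, 6.82 and 1.93 FPKM. The leukocyte marker PTPRC stood at 17.6, 39.9 and 8.08 FPKM in these libraries, and its part in the KLHL6 pair was not tested.

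Of the 6 pairs in opposite directions between early and peak, LOC102189609 with FAM198B, LOC106502479 with CTGF and TRNP1 with FAM46B had the lncRNA listed at 0 in the early library. LOC102189609 was at 1.09 and 4.52 FPKM in the peak and late libraries, 296 nt from FAM198B at 16.7, 5.99 and 25.4 FPKM. LOC106502479 was above 0 in the peak library alone, at 2.96 FPKM, while CTGF, a matricellular growth factor, was at 49.5, 18.3 and 24.3 FPKM. TRNP1 was at 0.344 and 0.897 FPKM in the peak and late libraries. Of the rest, LOC106502728 was given above with LYPD6. LOC106502168 was at 1.06 and 0.414 FPKM and listed at 0 in the late library, beside BBS7, a protein of cilia, at 2.91, 6.805 and 2.099 FPKM. LOC106502519 was at 0.168, 0.898 and 0.746 FPKM beside ZFHX2 at 3.94, 1.67 and 4.10 FPKM. Those of FAM46B and ZFHX2 were named here after their values were seen, and in 5 of the 6 pairs the lncRNA was under 5 FPKM in every library.

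**Figure D5:**
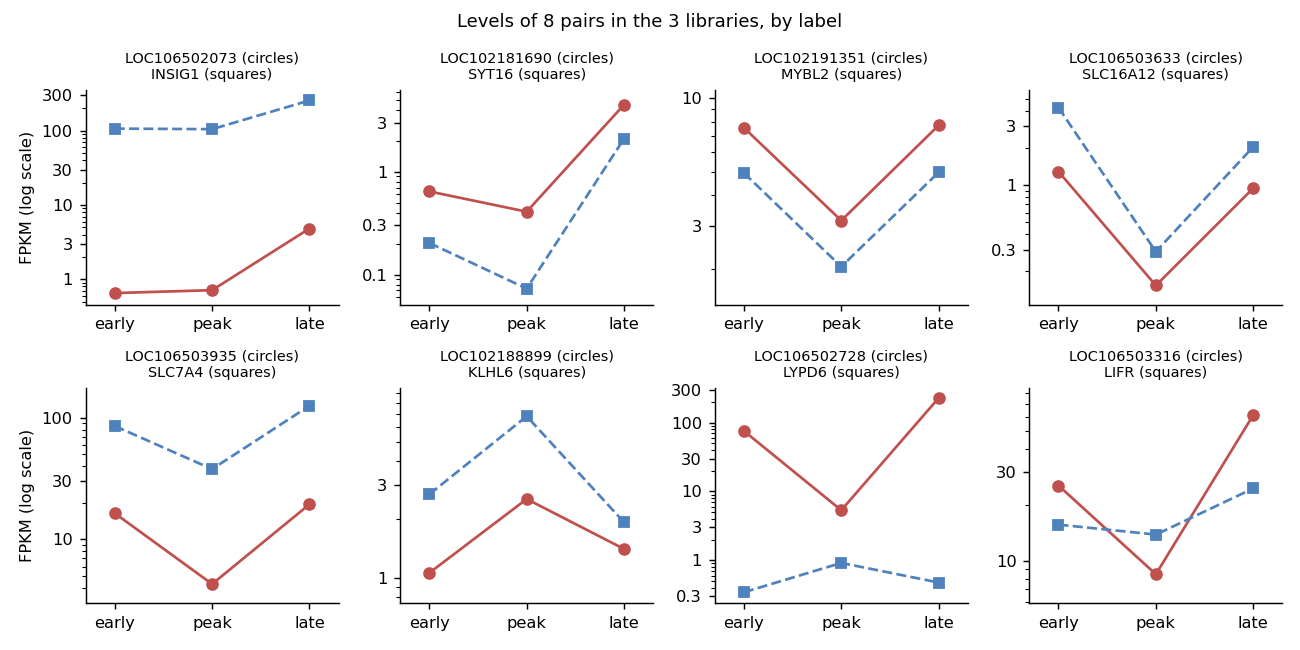
FPKM on a log axis of 8 lncRNAs (circles) and their nearest coding loci (squares) by the label of the library, 1 pooled library per stage and no error bars. The pairs of INSIG1 and SYT16 stand high in the late library, those of MYBL2, SLC16A12 and SLC7A4 low and that of KLHL6 high in the peak library. LIFR moves less than its lncRNA. LYPD6, under 1 FPKM in every library, is highest in the peak library, where its lncRNA is lowest.

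The neighbours were also read by role, in groups drawn up after their values were seen. The groups are small and untested, their counts stand against 10.4% higher and 6.76% lower over all loci between early and peak, and nothing particular to a group follows from them. Protein secretion held 9 pairs, among them those of SEC61A1, the protein channel of the endoplasmic reticulum, and DDOST, a subunit of oligosaccharyltransferase. DDOST was at 188, 123 and 235 FPKM, and LOC106503576, 519 nt away, at 3.86, 2.48 and 4.83 FPKM. SEC23B, of the COPII vesicle coat, was at 28.03, 17.9 and 35.4 FPKM, and LOC106502755, 353 nt away, at 18.4, 14.2 and 19.7 FPKM. In both pairs the lncRNA had the order of its neighbour, lowest in the peak and highest in the late library. The pair of SEC61A1 did not share this order. SEC61A1 was at 144, 86.6 and 176 FPKM, while LOC102169635 beside it was at 1.85, 2.12 and 2.01 FPKM, highest in the peak library. Over the 9 pairs the median log2 ratio of peak over early was -0.37 for the lncRNAs and -0.61 for the neighbours, 6 pairs had one sign, and 1 lncRNA and 1 neighbour were 2-fold lower.

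Of 7 neighbours of leukocyte function, the median log2 ratio of peak over early was 0.93, with KLHL6 and MYO1G, a myosin of lymphocytes, at least 2-fold higher, and that of their 7 lncRNAs was -0.41, with 2 higher and 3 lower. CIITA, the master regulator of MHC class II genes, was at 3.14, 6.19 and 1.31 FPKM, while DEXI, 2612 nt away, was at 9.20, 4.53 and 8.20 FPKM. MYO1G was at 0.795, 2.54 and 0.385 FPKM, while LOC102182195, 2744 nt away, was at 34.9, 26.3 and 38.2 FPKM. In these pairs, as in that of BCL6, the coding gene was highest and the lncRNA lowest in the peak library, and 3 of the 7 pairs had ratios of one sign. PTPRC, the pan-leukocyte marker, CD68 and JCHAIN were also highest in the peak library, while CD3E was above 0 in the late library alone. The part of leukocytes in these values was not tested.

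Among 5 neighbours of cell division and growth arrest, MYBL2 was the only one 2-fold apart between early and peak, while 3 of their 5 lncRNAs were lower, and 1, LOC102177307 beside BTG1, was listed at 0 in the early library and stood at 1.12 FPKM in the peak library. LOC106502936 was at 67.1, 24.8 and 72.1 FPKM, 15299 nt from BTG2, an antiproliferative factor that stayed at 16.2, 14.3 and 16.0 FPKM. The lncRNA dipped in the peak library beside a level neighbour. Among 5 neighbours with a part in lipid metabolism, both lncRNAs beside SPHK1, the kinase that makes sphingosine 1-phosphate, were lower in the peak library, at 1.57, 0.167 and 0.918 FPKM for LOC102185776 and 0.914, 0.249 and 0.428 FPKM for LOC102185500. SPHK1 itself was at 6.93, 7.13 and 4.33 FPKM.

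Of 4 vascular neighbours, RHOB, a small GTPase, was 2-fold lower in the peak library (161, 76.5 and 108 FPKM), and LOC106502652, 492 nt away, was at 2.53, 1.42 and 3.87 FPKM. KDR, the main receptor of VEGF, was at 27.7, 22.8 and 35.4 FPKM beside LOC106502205 at 1.85, 1.10 and 1.78 FPKM. The only vascular lncRNA at least 2-fold apart between early and peak was LOC106502388, at 0.567, 1.73 and 0.419 FPKM. Its neighbour TEK was at 6.42, 7.11 and 8.48 FPKM. Ratios of one sign were found in 3 of the 4 vascular pairs in peak over early and in 1 in late over early. Of 5 developmental transcription factors, TWIST2 was 2-fold higher in the peak library (1.12, 3.04 and 1.12 FPKM), and LOC102179832, 1799 nt away, was at 1.34, 2.28 and 1.47 FPKM. Lowest in the late library were IRX5, at 9.20, 9.03 and 4.35 FPKM, and both of its lncRNAs, LOC102184183 at 3.15, 7.01 and 2.87 FPKM and LOC102183995 at 0.548, 0.832 and 0.303 FPKM. NR2F2, a nuclear receptor of mesenchymal and vascular cells, was highest in the peak library (2.83, 5.18 and 1.66 FPKM). So were LOC102172201, at 0.635, 1.32 and 0.618 FPKM, and LOC102172486, at 0.571 and 0.721 FPKM and listed at 0 in the late library. LOC102179617 beside FOXC1 was the only lncRNA of this group 2-fold lower in the peak library, with log2 ratios to early of -1.16 and -0.18. The ratios of LOC106503470 and FOXP4 had opposite signs (-0.099 and 0.348), as had those of both IRX5 pairs. Of the 7 developmental pairs, 4 had ratios of one sign in peak over early and 5 in late over early.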

How the data were processed

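Total RNA of mammary gland from 5 goats per stage was pooled into 1 library for each of 3 stages. The authors trimmed the reads, mapped them to the goat genome, assembled and merged the transcripts and quantified them, and the deposited values are FPKM per locus, 1 column per library. The submitters' processing notes name TopHat2 2.0.9, Cufflinks 2.1.1 and Bowtie2. Columns were assigned by the labels. The methods name a goat genome version for mapping and link a reference assembly for transcript assembly. The deposited values do not say to which build their scaffolds belong, so coordinates are given as deposited. Whether counting used strand is not given in the sources used here.

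Of 15161 entries ending in 1 gene ID, 14290 had their ID in the RefSeq gene table of ARS1.2, which gave 13424 coding loci, 11419 with coordinates of their own. That table served for symbols, types and gene order only. Gaps are the bases between 2 loci. Ratios are log2 of FPKM + 0.1, and loci were counted as apart at 2-fold. With 1 library per stage, no test was run. The rule asked for random coding loci of similar FPKM, and 1 fixed partner, the closest in mean FPKM on another scaffold, was used instead.

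Named are the 6 lncRNAs of highest mean, the 4 highest and 4 lowest ratios per comparison with both loci at 1 FPKM or more in both libraries, up to 5 pairs per comparison and direction with both loci 2-fold apart and reaching 1 FPKM, neighbours on the gene list, and the pairs at the distance limit. Members, lists and rules were chosen with earlier results of these data known. The counting step was run on 10249 coding loci at 1 FPKM or more in the early library, with peak values made from the early ones without noise. A 4-fold change was given to 200 of them. In peak over early, 200 of 200 changed loci and 0 unchanged loci were counted. This outcome was fixed by the construction, so it checks the code alone. For 300 of 300 coding loci at deposited coordinates, the gap to the nearest coding locus was right. Alternatives were another pseudocount, a filter on low FPKM, a 10 kb window, each coding locus used once, overlapping pairs left out, centred ratios, exchanged peak and late labels, shared coordinates kept, and rank correlation, and after the data were seen also loci listed at 0 or the 2 extreme pairs left out. Python 3.11.15, numpy 2.4.6, pandas 2.3.3 and matplotlib 3.10.9 were used.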

Additional observations from a re-analysis of the deposited data

How the results depend on the processing

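No paired analysis was possible because no stage has more than 1 library, and leaving out replicates was not possible for the same reason. The fragments behind each FPKM are unknown, so no limit set by depth is given. For the correlations and counts over pairs, the limits for a change were 0.1 in a correlation and 1.5 times in a count. Of the alternatives, 83 stayed within these limits and 35 did not. Some of the 83 were bound to stay. No lncRNA locus overlapped a coding locus, so leaving out overlapping pairs changed no value of the lncRNA pairs. Centring shifts all ratios of a comparison alike, so it cannot change a correlation. Where an alternative went beyond the limits, the cause was not tested, except that fewer or more pairs enter under a filter, a shorter window or kept coordinates.

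With 1 added to FPKM, the lncRNAs at least 2-fold apart numbered 37 (peak over early) and 23 (late over early), the pairs in one direction 4 and 3, and those in opposite directions between early and peak 2. With both loci at 1 FPKM or more, the lncRNAs numbered 26 and 8, the pairs in one direction 4 and 0, and the opposite pairs between early and peak 0. With the partner of like FPKM, itself at 1 FPKM or more, r was then 0.21 between early and peak. With a 10 kb window the lncRNAs numbered 44 and 26, the pairs in one direction 5 and 2, and the opposite pairs 3. With shared coordinates kept, the lncRNAs numbered 175 and 126, the pairs in one direction 23 and 11, and r between early and late was 0.13. As a rank correlation, the value of the partner of like FPKM was 0.089 between early and late. Without loci listed at 0, r was 0.27 and 0.43, the lncRNAs between early and late numbered 26, the pairs in one direction there 3, and the opposite pairs between early and peak 3. Leaving out the 2 pairs farthest from the median gave r of 0.17 and 0.28.

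With the labels peak and late exchanged, r was 0.27 and 0.15, the lncRNAs numbered 46 and 73, the pairs in one direction 5 and 8, and those in opposite directions 0 and 6. Among named ratios of at least 2-fold, that of peak over early then changed sign for LOC106502102 (0.28), LOC102178854 (-4.81), LOC106503935 (0.24), LOC102179411 (-0.36), LOC102191351 (0.032), LOC106503316 (1.26) and LOC102180344 (-4.41), and that of late over early for LOC106502249 (-0.11), LOC102185919 (-1.88), LOC102181690 (-0.55), LOC106503316 (-1.58) and LOC102180344 (3.85). The values -4.81 and -4.41 rest on a locus listed at 0. Below 2-fold, the ratio of late over early of LOC102178623 also changed sign (-0.67).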

Other observations

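Left out of the pairs were 326 lncRNA loci that shared coordinates with another entry, among them 134 that shared them with a coding locus. Their medians were 1.71, 1.57 and 1.88 FPKM in the early, peak and late libraries. Across those 134, the log2 ratios of lncRNA and coding locus had a Pearson's r of 0.28 in peak over early and 0.03 in late over early. The order of both comparisons was thus the other way round from that of the 187 pairs with coordinates of their own, at 0.15 and 0.27, and the difference was not tested.

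LOC102176325, 6664 nt from UHRF2, a ubiquitin ligase of chromatin, was at 13.6 and 5.53 FPKM in the early and peak libraries and listed at 0 in the late library, and it had the highest early level of the lncRNAs listed at 0 there. UHRF2 was at 12.8, 15.9 and 12.9 FPKM. LOC106502194, 884 nt from NSUN7, was listed at 0 in the early and peak libraries and stood at 2.72 FPKM in the late library.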
